A study of Rattus norvegicus with 10 samples.

Results

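The miR-9 family was represented in the hippocampus by 3 members, miR-9a-5p, miR-9a-3p and miR-9b-5p, taken by mature name from 765 listed rat miRNAs. All 3 passed the filter on low values, a mean of at least 1 RPM (reads scaled to a fixed library total) over the 10 libraries, which 474 miRNAs passed. A further row of the same name, miR-9b-3p, was listed and is given beside them without being a member. The labels describe small RNA sequencing of total RNA from hippocampi of Wistar rats aged 10 weeks. One group of 5 libraries had the 2-VO operation, the occlusion of both common carotid arteries, which lowers blood flow to the brain. The other 5 libraries came from sham-operated rats of the same strain and age. Nothing in the labels names pooling, the time after the operation or separate animals. The p-values therefore only set group differences against the variation between these libraries, and that variation may be technical.

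miR-9 is a conserved miRNA of neural progenitors and neurons that is transcribed from several loci. Both arms of its hairpin are known to be used: in mouse and human neural cells the 5p arm represses the transcriptional repressor REST, and the 3p arm its corepressor CoREST. The 5p arm is also known to repress progenitor factors such as Hes1 and Nr2e1 (TLX), and through these targets miR-9 takes part in the balance between progenitor proliferation and neuronal differentiation.

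The mature sequences are shown because the members differ in seed and in strand although they share a name (RefSeq, build GRCr8, 5′ to 3′, seed at bases 2 to 8 in capitals).
miR-9a-5p: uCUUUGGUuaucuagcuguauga
miR-9a-3p: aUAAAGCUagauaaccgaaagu
miR-9b-5p: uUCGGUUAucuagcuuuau
miR-9b-3p: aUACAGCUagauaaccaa
Each of the 4 had a seed of its own, and 0 other rat mature miRNAs of the RefSeq table shared any of these seeds. miR-9a-5p and miR-9b-5p had in common a run of 12 bases, at positions 6 to 17 of miR-9a-5p and 4 to 15 of miR-9b-5p, shown here in capitals.
miR-9a-5p: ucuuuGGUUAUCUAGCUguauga
miR-9b-5p: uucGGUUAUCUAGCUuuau

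RefSeq places miR-9a at 3 loci, Mir9-1, Mir9-2 and Mir9-3, and miR-9b on the opposite strand of the same 3 loci. All 19 bases of miR-9b-5p are the reverse complement of bases within miR-9a-3p, and all 18 bases of miR-9b-3p the reverse complement of bases within miR-9a-5p. At Mir9-3, miR-9a-3p lies at chr1:142849454-142849475 on the plus strand and miR-9b-5p at chr1:142849454-142849472 on the minus strand (GRCr8). There, miR-9a-5p lies at chr1:142849415-142849437 on the plus strand and miR-9b-3p at chr1:142849418-142849435 on the minus strand. The hairpins of this locus are shown with their mature miRNAs in capitals, each read 5′ to 3′ on its own strand.
Mir9-3: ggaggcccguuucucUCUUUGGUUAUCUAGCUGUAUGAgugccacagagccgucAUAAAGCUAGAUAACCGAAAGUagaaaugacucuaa
Mir3597-3: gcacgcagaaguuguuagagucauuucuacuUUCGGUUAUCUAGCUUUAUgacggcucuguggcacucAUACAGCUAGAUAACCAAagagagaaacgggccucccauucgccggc

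Counting by strand was not given in the sources used here, and it was not tested. In a comparison made after the values were seen, the table held 8 pairs of rows annotated on opposite strands of exactly the same bases, with at least 1 RPM on average. In all 8 of these pairs, among them let-7a-5p with miR-3596a and miR-125b-5p with miR-3588, the levels in every library differed by less than 0.05 (log2). In 24 pairs one annotated span lay inside the other on the opposite strand. In 23 of them the shorter row was never above the longer one. In 4 of the 23 the shorter row was at 0 in every library, so it could not lie above. The exception was miR-434-3p inside miR-3543, which lay above it in all 10 libraries. Both miR-9b rows belong to these 23, the mean level of miR-9b-5p over the 10 libraries being 45.4% of that of miR-9a-3p, and the mean level of miR-9b-3p 0.182% of that of miR-9a-5p. Over the other 22 nested pairs the shorter row stood at 0% to 112% of the longer one, with a median of 9.74%. In the 4 other nested pairs with a difference of 3 bases, the shorter row stood at 0% to 9.36% of the longer one. With strand use not given, reads under the name miR-9b cannot be told apart from reads of miR-9a that lie within the shorter span. For this reason miR-9b is used below as the name of a row.

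**Figure D1:**
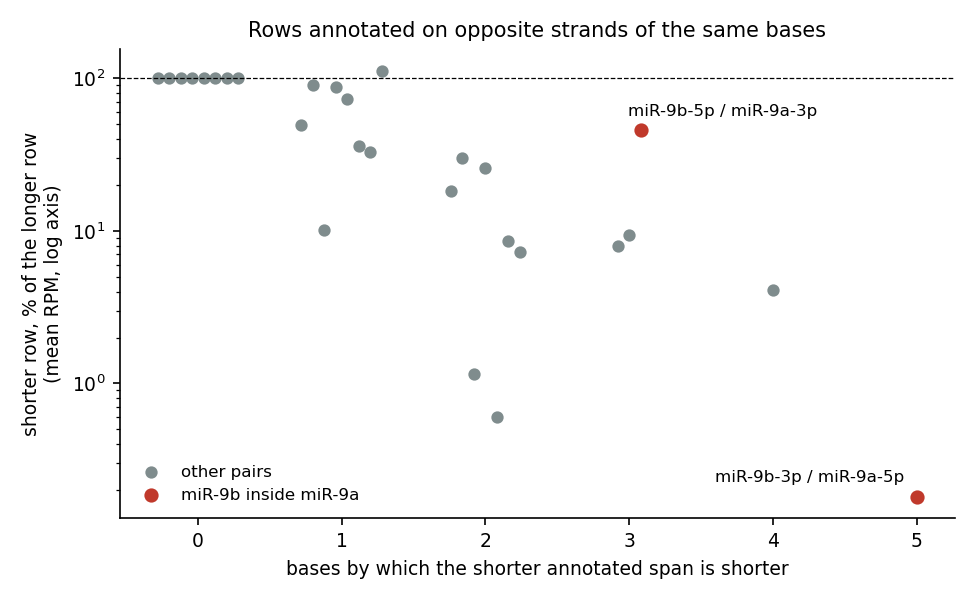
Mean level of the shorter row as a percentage of the longer row (log axis) against the difference in annotated length in bases, for pairs of rows on opposite strands of the same bases, with points of equal difference spread sideways; 4 nested pairs with the shorter row at 0 cannot be drawn. The 8 pairs of equal span lie at 100%, and miR-9b-5p lies at 45.4% of miR-9a-3p.

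The RPM values rest on divisors of 13032805 to 13850400 reads per library, of which the listed miRNAs took 60.3% to 78.0%, with the lowest share in 2-VO replicate 3. As a check of the brain tissue label, the 4 neuron markers (miR-124-3p, miR-128-3p, miR-138-5p and miR-132-3p) summed to 44320 to 61734 RPM in 2-VO libraries and 51953 to 63399 RPM in sham libraries. Most of this sum was miR-128-3p, at a mean of 50299 RPM in 2-VO and 54749.6 RPM in sham libraries. The 3 markers of liver and muscle summed to 17.4 to 29.3 RPM in 2-VO and 20.3 to 28.3 RPM in sham libraries. The 7 markers of other brain regions and epithelium summed to 22.0 to 95.9 RPM in 2-VO and 15.0 to 41.6 RPM in sham libraries, with miR-196a-5p at 0 throughout. The 2 oligodendrocyte markers summed to 118 to 221 RPM in 2-VO and 96.2 to 209 RPM in sham libraries, and the endothelial miR-126a-3p lay at 5524 to 7982 RPM in 2-VO and 6299.7 to 7411 RPM in sham libraries. The 2 red blood cell markers summed to 7.15 to 44.2 RPM in 2-VO and 14.7 to 24.5 RPM in sham libraries, and the 2 markers of leukocytes and microglia to 18.2 to 35.7 RPM in 2-VO and 17.8 to 25.9 RPM in sham libraries. The 2 choroid plexus markers summed to 385 to 558 RPM in 2-VO and 543 to 944 RPM in sham libraries. The part of these other cells and of the share of unlisted reads in the values below was not tested. In bulk RNA, fewer cells of a type and less RNA per cell cannot be told apart.

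miR-9a-5p, the arm that represses REST and progenitor factors, ranked first among all listed miRNAs in each of the 10 libraries. Its level was 109628, 135583, 144638, 130901 and 138079 RPM in 2-VO replicates 3, 5, 6, 7 and 8, against 127428, 134895, 147717, 110725 and 144550 RPM in sham replicates 1 to 5. The groups overlapped nearly completely, with the lowest value in 2-VO replicate 3 and the highest in sham replicate 3. The level was 2.31 to 3.14 times that of the second most abundant miRNA, miR-128-3p, in 2-VO libraries and 2.04 to 2.94 times in sham libraries. As a share of the listed RPM it took 18.2% to 20.4% in 2-VO and 16.7% to 19.6% in sham libraries. These values rest on 1496289 to 1938220 reads per library, for which counting error alone is at most 0.0818% if reads are taken as independent molecules, which PCR reads are not. The spread between libraries was 10.1% of the mean in 2-VO and 11.2% in sham libraries (coefficient of variation, n = 5 each).

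The comparison of 2-VO with sham asks whether carotid occlusion changed the level of each member in the hippocampus. For miR-9a-5p the log2 fold change was -0.013 ± 0.10 (SE), with a 95% interval from 0.855-fold to 1.15-fold (limma's moderated test, Benjamini-Hochberg adjusted p = 0.98 over 474 miRNAs). The sign turned to 0.045 when levels were scaled to the listed miRNA reads, to 0.051 with TMM factors and to 0.042 with median-of-ratios factors. Without 2-VO replicate 3 it was 0.052, without sham replicate 3 it was 0.027 and without sham replicate 5 it was 0.019. No direction is therefore given for miR-9a-5p.

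miR-9a-3p, the arm that represses CoREST, stood at 2562, 3322, 3247, 2919 and 3301 RPM in 2-VO replicates 3, 5, 6, 7 and 8. In sham replicates 1 to 5 it stood at 2933, 3368, 3464, 3113 and 3234 RPM. In 2-VO, replicates 3 and 7 lay below the lowest sham library, and the other 3 lay within the sham range. It ranked between 34 and 36 of all listed miRNAs in each library. The log2 fold change was -0.074 ± 0.097 (SE), with limma's adjusted p at 0.93 and a 95% interval from 0.823-fold to 1.10-fold. Without 2-VO replicate 3, which held the lowest value, the log2 fold change was -0.011.

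miR-9b-5p varied most among the members and was the one whose levels were furthest apart between the groups. Its level was 1249, 1132, 1249, 1044 and 1688 RPM in 2-VO replicates 3, 5, 6, 7 and 8, against 1557, 1652, 1763, 1727 and 1235 RPM in sham replicates 1 to 5. Of the 5 2-VO libraries, 4 lay below the mean of the sham libraries, while 2-VO replicate 8 lay among the high sham values and sham replicate 5 among the low 2-VO values. The mean was 1272 ± 248 RPM in 2-VO and 1587 ± 212 RPM in sham libraries (SD, n = 5 each). The log2 fold change was -0.33 ± 0.14 (SE; limma adjusted p = 0.76), so the difference did not pass the threshold of 0.05. Its unadjusted limma p was 0.029, the 14th smallest of 474, and the exact two-sided permutation test over samples gave an unadjusted p of 0.079. The unadjusted limma p was 0.059 scaled to the listed reads, 0.062 with TMM and 0.056 by median of ratios. It was 0.059 to 0.082 without 2-VO replicate 5 or 7 or sham replicate 2, 3 or 4, each left out alone. Without 2-VO replicate 3 or 6 or sham replicate 1 the unadjusted limma p was 0.040 to 0.047. It was 0.0029 without 2-VO replicate 8 and 0.0066 without sham replicate 5, where limma's adjusted p was 0.49 and 0.46.

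These values are read against the whole table. Of 474 miRNAs, 0 passed the adjusted threshold, which is 0%, with limma on log2(RPM + 1), and 0 passed with voom on whole reads. An unadjusted p under 0.05 was found for 24 of 474, or 5.06%, with limma, for 25 with voom and for 32 with exact permutation tests. In 2-VO, 20 of 474, or 4.22%, had such a p and a lower level, and 62.2% of all miRNAs had a log2 fold change below 0, with a median of -0.051. This lean to lower levels was not seen on other scales: the share below 0 was 49.4% scaled to the listed reads, 47.7% with TMM and 50.4% by median of ratios, and 50.2% without 2-VO replicate 3. Unadjusted calls were 4 higher and 20 lower in 2-VO as deposited, against 14 and 21 scaled to the listed reads, 18 and 18 with TMM, and 16 and 21 by median of ratios. All 3 members had a log2 fold change below 0 as deposited, which for miR-9a-5p turned on the other scales. miR-9b-5p was the 1 of the 3 with an unadjusted p under 0.05 as deposited. The groups overlapped for all 3 members, while 3 of 474 miRNAs, or 0.633%, had groups that did not overlap.

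**Figure D2:**
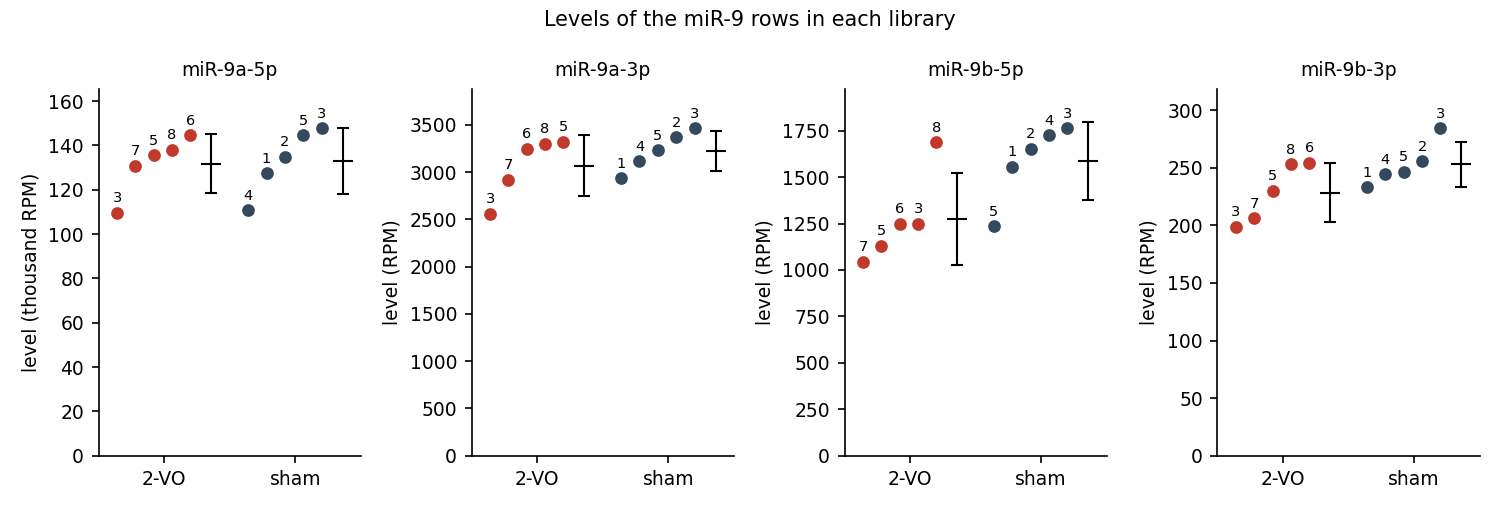
Level in RPM of the 3 members and of miR-9b-3p in each library (points, labelled with the replicate number), with the mean and SD of each group of 5 beside them; the axes start at 0 and differ in scale, and the axis of miR-9a-5p is in units of 1000 RPM. Both groups overlap in every panel, and for miR-9b-5p 4 of 5 2-VO libraries lie below the sham mean of 1587 RPM.

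**Figure D3:**
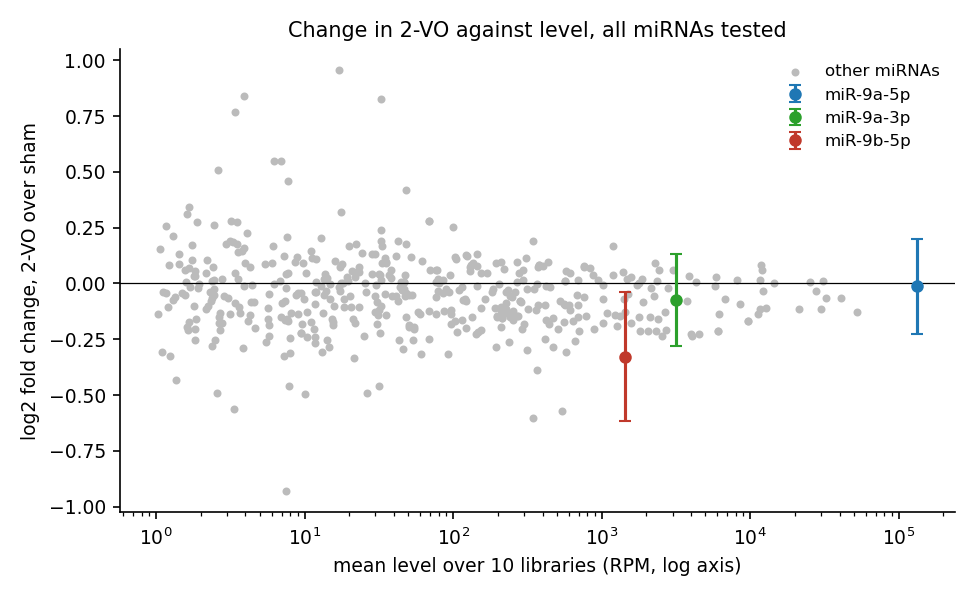
Log2 fold change of 2-VO over sham against the mean level over 10 libraries (RPM, log axis) for 474 miRNAs, with 95% intervals for the 3 members. miR-9a-5p lies at the right end at -0.013, and miR-9b-5p lies at -0.33.

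Ratios within a library do not depend on its divisor. The ratio of the level of miR-9a-5p to that of miR-9a-3p was 42.8, 40.8, 44.5, 44.8 and 41.8 in 2-VO replicates 3, 5, 6, 7 and 8, against 43.4, 40.05, 42.6, 35.6 and 44.7 in sham replicates 1 to 5. The 2-VO libraries lay between 40.8 and 44.8, and the sham libraries other than replicate 4 between 40.05 and 44.7. The low value belonged to sham replicate 4. On the log2 scale the ratio was 5.42 ± 0.0582 in 2-VO and 5.36 ± 0.131 in sham libraries (SD, n = 5), which leaves 0.061 ± 0.095 (SE) between them (limma adjusted p = 0.81 over 132 hairpins). Of the 132 hairpins, 0 passed, which is 0%, with limma, and 15, or 11.4%, had an unadjusted p under 0.05. Of the hairpins, 1 passed without 2-VO replicate 3 and 3 passed without sham replicate 5. The count at an unadjusted p under 0.05 was 8 without 2-VO replicate 5 or sham replicate 4. The groups overlapped for miR-9a, while 2 of 132 hairpins, or 1.52%, had groups that did not overlap. Without sham replicate 4 the difference was 0.0088.

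Among the 132 hairpins with both arms kept, miR-9a was the 23rd in the order of the mean log2 ratio of 5p to 3p, and 71 hairpins had more 5p than 3p. Its mean log2 ratio was 5.39, against 5.43 for miR-194 and 5.43 for miR-532 just above it in that order, and 5.30 for miR-93 and 5.11 for miR-150 just below it. The differences to miR-194, miR-532 and miR-93 were smaller than the SD of those hairpins within either group, and the difference to miR-150 was larger. The spread of the miR-9a ratio between libraries of a group was small, with a within-group SD of 0.101 on the log2 scale against a median of 0.202 over all hairpins, and 7 hairpins had a smaller one.

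The ratio of miR-9a-5p to miR-9b-5p was more variable. It was 87.8, 119.8, 115.8, 125.4 and 81.8 in 2-VO replicates 3, 5, 6, 7 and 8, against 81.8, 81.7, 83.8, 64.1 and 117.04 in sham replicates 1 to 5. 2-VO replicates 5, 6 and 7 and sham replicate 5 held the 4 highest values, so the high and low values crossed the groups. On the log2 scale the mean ratio was 6.71 ± 0.282 in 2-VO and 6.39 ± 0.310 in sham libraries (SD, n = 5). The difference of 0.314, or 1.24-fold, was slightly larger than the SD of either group, and the groups overlapped. The exact two-sided permutation test of this difference over 252 assignments did not pass the threshold (p = 0.11, smallest possible p = 0.0079). The limma interval of this difference ran from -0.033 to 0.66 on the log2 scale. It was 0.22 without sham replicate 4 and 0.43 without sham replicate 5, and the exact permutation p lay between 0.056 and 0.27 with 1 library left out.

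The ratio of miR-9a-3p to miR-9b-5p, the rows on opposite strands of the same bases, is given without a test. It was 2.05, 2.94, 2.60, 2.80 and 1.96 in 2-VO replicates 3, 5, 6, 7 and 8, against 1.88, 2.04, 1.96, 1.80 and 2.62 in sham replicates 1 to 5. The same 4 libraries, 2-VO replicates 5, 6 and 7 and sham replicate 5, had the highest values of both ratios to miR-9b-5p.

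**Figure D4:**
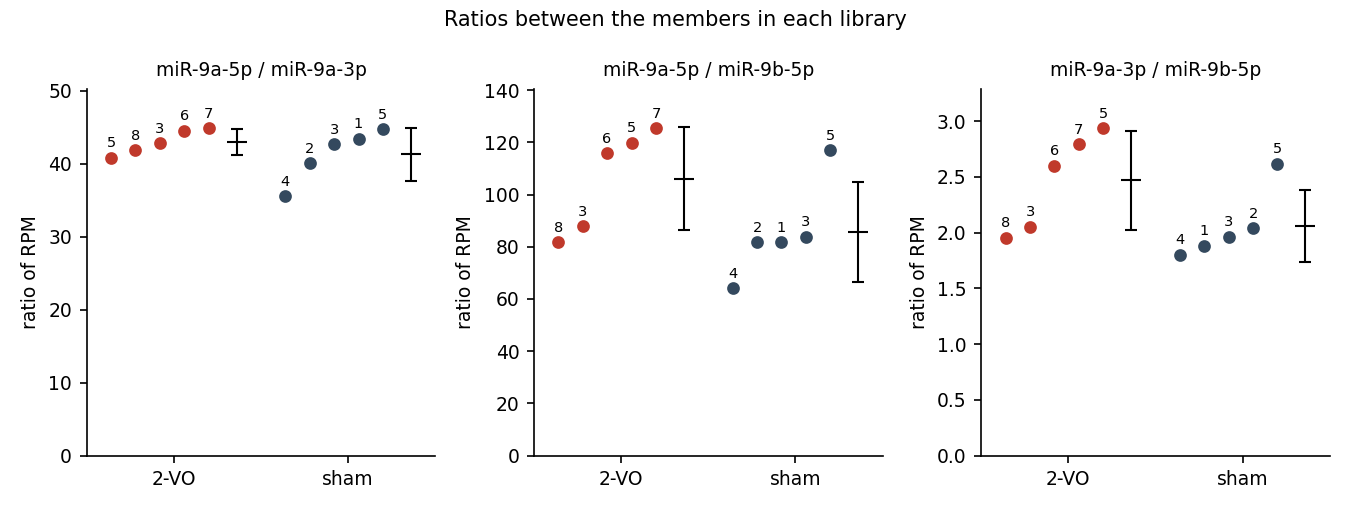
Ratios of RPM between the members in each library (points, labelled with the replicate number), with the mean and SD of each group of 5 beside them. The ratio of the miR-9a arms lies between 35.6 and 44.8 in all libraries, while both ratios to miR-9b-5p are high in 2-VO replicates 5, 6 and 7 and in sham replicate 5.

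Within the family, miR-9a-5p made up 96.5% to 97.1% of the summed level of the 3 members in 2-VO and 95.8% to 97.0% in sham libraries. miR-9a-3p made up 2.16% to 2.37% in 2-VO and 2.17% to 2.69% in sham libraries. miR-9b-5p made up 0.774% to 1.18% in 2-VO and 0.829% to 1.49% in sham libraries. The order miR-9a-5p, miR-9a-3p, miR-9b-5p held in every library with no overlap between their levels. An RPM level here counts reads of a mature miRNA with no correction for length, and reads may differ from molecules by sequence. Together the 3 members took 18.8% to 21.0% of the listed RPM in 2-VO and 17.4% to 20.2% in sham libraries. Whether rows on opposite strands count the same reads was not tested, so such sums may hold some reads more than once. The same limit holds for the other shares of the listed RPM and for the listed share of the divisor.

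The members were not alike in how they varied across the 10 libraries. On log2 levels as deposited, Pearson's r between miR-9a-5p and miR-9a-3p was 0.75, between miR-9a-5p and miR-9b-5p -0.035, and between miR-9a-3p and miR-9b-5p 0.38 (n = 10, as a description). These values share the divisor of each library, and the median r with 335 other miRNAs of at least 10 RPM was 0.50 for miR-9a-5p, 0.61 for miR-9a-3p and 0.26 for miR-9b-5p. Scaled to the listed miRNA reads, r was -0.019 between the miR-9a arms, -0.71 between miR-9a-5p and miR-9b-5p, and 0.13 between miR-9a-3p and miR-9b-5p. On that scale the values are shares of a whole of which miR-9a-5p takes nearly 1 in 5 reads.

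The miRNAs most like miR-9a-5p on levels as deposited were miR-28-3p, miR-29a-3p and miR-344a-3p (r of 0.91 each, n = 10). Scaled to the listed reads they were miR-29b-5p, miR-28-3p and miR-30e-5p (r of 0.80, 0.75 and 0.74). Those most like miR-9a-3p as deposited were miR-487b-3p, miR-384-5p and miR-410-3p (r of 0.95, 0.94 and 0.93). Scaled to the listed reads they were miR-410-3p, miR-421-3p and miR-487b-3p (r of 0.93, 0.85 and 0.82). For miR-9b-5p as deposited they were miR-3556a, miR-3596d and miR-24-3p (r of 0.94, 0.91 and 0.90). The same 3 led on levels scaled to the listed reads (r of 0.94, 0.92 and 0.87). Of these, miR-3556a inside miR-29a-3p and miR-3596d inside let-7f-5p are also rows whose span lies within that of a miRNA on the opposite strand. The longer rows of these pairs did not vary in the same way. On the scaled levels their r to miR-9b-5p was -0.57 for miR-29a-3p and -0.018 for let-7f-5p. Between miR-9b-5p and its own longer row, miR-9a-3p, r was 0.13 on that scale. Between miR-9b-3p and its longer row, miR-9a-5p, r was -0.56. Other shorter rows of nested pairs with at least 10 RPM on average differed in their r to miR-9b-5p on that scale. It was 0.81 for miR-9b-3p, 0.79 for miR-3596c, 0.76 for miR-378a-3p and 0.59 for miR-409a-3p. For miR-434-3p it was 0.44, for miR-218b 0.38 and for miR-3556b -0.18.

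**Figure D5:**
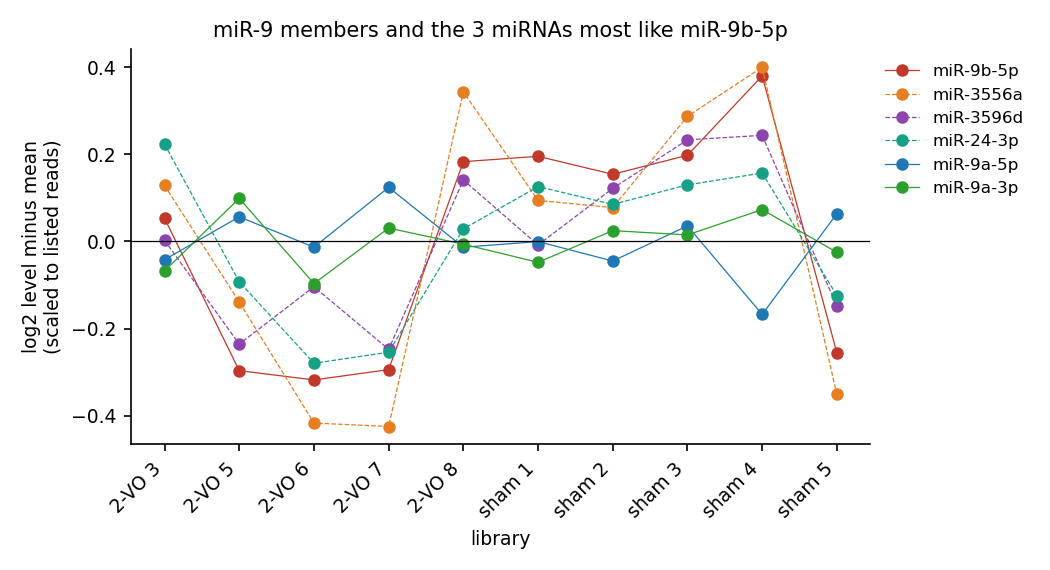
Log2 level scaled to the listed miRNA reads, minus the mean over 10 libraries, for the 3 members and the 3 miRNAs most like miR-9b-5p (lines only guide the eye, since replicates have no order). miR-9b-5p, miR-3556a, miR-3596d and miR-24-3p are all below their mean in 2-VO replicates 5, 6 and 7 and in sham replicate 5.

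Other miRNAs of the neural differentiation programme in which miR-9 acts were described by a list of 15, all of which passed the filter. Of these, 5 had a log2 fold change above 0 and 10 one below 0 in 2-VO. The adjusted threshold with limma was passed by 0 of them and by 0 of all 474 miRNAs. An unadjusted limma p under 0.05 was found for 1 of the 15, against 24 of 474, or 5.06%, over all miRNAs. This was miR-34a-5p, at a mean of 55.0 RPM in 2-VO and 40.9 RPM in sham libraries. The median log2 fold change of the list was -0.016 against -0.051 over all 474 miRNAs. The share of 10 in 15 lay near the 62.2% of all miRNAs with a log2 fold change below 0 on the deposited scale, a share that was 47.7% to 50.4% under the 3 other scalings. miR-128-3p, a neuron-enriched miRNA, stood at 50299 ± 6612 RPM in 2-VO and 54749.6 ± 3993 RPM in sham libraries (log2 fold change -0.13, with an adjusted p from limma of 0.84). miR-218a-5p, a miRNA of motor neurons and other neurons, stood at 14609.7 ± 2438 RPM in 2-VO and 14461 ± 1106 RPM in sham libraries. miR-125b-5p, a regulator of neural differentiation, stood at 9127 ± 938 RPM in 2-VO and 10257 ± 974 RPM in sham libraries, and miR-3588 on its opposite strand lay within 0.05 (log2) of it in every library. miR-29a-3p, which rises as neurons mature, stood at 5810.5 ± 612 RPM in 2-VO and 5845 ± 580.2 RPM in sham libraries (SD, n = 5 each).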

How the data were processed

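The authors deposited a table of RPM values (reads scaled to a fixed library total) for 765 mature rat miRNAs in 10 libraries, per the file headers. Per the submitters' processing notes, bcl2fastq, BWA and the build rn6 were used. The annotation, strand use, the reads in the divisor and the handling of multiple matches were not given in the sources used here. All 4962 values above 0 were whole reads within 0.01 reads at 1 divisor per library, and the smallest stood for 10 reads, so lower counts are taken to be listed as 0.

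Groups were taken from the treatment labels and replicate numbers from the titles. log2(RPM + 1) of 474 miRNAs was compared with limma 3.58.1 in R 4.3.3 (mean-variance trend, two-sided, no covariate, Benjamini-Hochberg), and arm ratios over 132 hairpins in the same way. The script was tested on simulated data. The ratio of miR-9a-5p to miR-9b-5p was tested by exact permutation. Voom on whole reads replaced a planned count test, since no value under 10 reads is listed. The members, the lists and the tests were chosen with earlier results of these data known. Named miRNAs were the members, the 3 most like each member on either scale, the 4 most abundant of the list of 15, and the hairpins next to miR-9a. Rows of opposite-strand pairs were named as well. Sequences are from RefSeq (GRCr8, 690 of 765 names matched, all 4 of miR-9), and no rn6 coordinates are given. Scalings, pseudocounts, filters, the block and each library left out were tried.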

Additional observations from a re-analysis of the deposited data

Results flagged for a closer look

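The ratio of miR-9a-3p to miR-9b-5p in sham replicate 5 was 2.62, against 2.04 in the nearest other sham library. Its gap to that library was 0.71 of the range of the 5 sham libraries, at the limit used for a value far from its group. It was the 1 such value in 40 groups of 5 values looked at, where chance alone gives about 2.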

How the results depend on the processing

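The number of miRNAs past the adjusted threshold was 0 in every setting run except with the replicate number as a block, where 8 of 474 passed and no miR-9 member did. Only the numbers 3 and 5 occur in both groups. The group difference under the block therefore rests on replicates 3 and 5 of each group alone. Libraries of other numbers do not enter it. No label says that a number marks a shared animal or day. The deviations of same-numbered libraries correlated at -0.058 and -0.18, against -0.38 to 0.44 for libraries of different numbers. These values cannot settle whether same-numbered libraries share more than a number. Under the replicate block the median of all miRNAs moved to -0.17, miR-9a-5p to -0.26, miR-9a-3p to -0.20 and miR-9b-5p to -0.31 (limma adjusted p = 1.0), the miR-9a arm ratio turned to -0.063 and the ratio of miR-9a-5p to miR-9b-5p was 0.050. The count at an unadjusted p under 0.05, 24, was 37 by median of ratios and ran from 12 without sham replicate 2 to 42 without 2-VO replicate 6 or 2-VO replicate 8. It was 14 without sham replicate 3 and 37 without sham replicate 5. The unadjusted count over hairpins, 15, was 8 under the block, 9 with a pseudocount of 5 and 5 of 74 with at least 10 RPM in both arms. The sign of miR-9a-5p turned under 3 scalings (0.045 by listed reads, 0.051 by TMM, 0.042 by median of ratios), and with 1 library left out it ran from -0.077 to 0.052. With 1 library left out, miR-9a-3p ran from -0.11 to -0.011, miR-9b-5p from -0.43 to -0.26, the arm ratio from 0.0088 to 0.091 and the ratio of miR-9a-5p to miR-9b-5p from 0.22 to 0.43. miR-9a-3p and miR-9b-5p kept their sign in all 20 alternatives each, and none of them passed (smallest limma adjusted p = 0.46 for miR-9b-5p). The other filters and the exact permutation test leave the log2 fold change as it was, so they could not turn a sign. The cause of these changes was not tested. The planned count test was not run, since values under 10 reads are not listed. Counting error of the members was at most 0.848% if reads are taken as independent molecules.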

Other observations

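As a share of the listed RPM, miR-9b-5p lay at 0.160% to 0.167% in 4 libraries, 2-VO replicates 5, 6 and 7 and sham replicate 5. In the other 6 libraries, 2-VO replicates 3 and 8 and sham replicates 1 to 4, it lay at 0.207% to 0.260%. No label separates these libraries in this way. miR-24-3p, which is on no list of opposite-strand rows here, had its 5 lowest shares in the same 4 libraries and in 2-VO replicate 8, at 0.317% to 0.392%, against 0.408% to 0.449% in the other 5. It was named for its likeness to miR-9b-5p over these same libraries, so low shares in the same libraries are no separate observation.

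miR-9b-3p, which is no member, stood at 228 ± 25.8 RPM in 2-VO and 253 ± 19.3 RPM in sham libraries (SD, n = 5; log2 fold change -0.15, limma adjusted p = 0.82). The level of miR-9b-5p was 4.91 to 6.67 times that of miR-9b-3p in 2-VO and 5.01 to 7.06 times in sham libraries.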
